A study of Caenorhabditis elegans with 4 samples.

Results

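The regions described are the ASH-2 peaks on the arms of chromosome II of Caenorhabditis elegans, 452 of the 3009 peaks in the series list, which is the deposited peak list that names no sample. They are the rows of that list on chromosome II whose midpoint lies in the outer 25% at either end, below position 3819836 or above 11459509 of the 15279345 bp chromosome in the WormBase WS220 build. Position alone decided membership, and no score, width or overlap was used. The left arm held 76 of these peaks and the right arm 376, and the centre of the chromosome held the other 72 of its 524.

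The peaks come from ChIP-seq of fem-2(b245) worms, genotype fem-2(b245)III, labelled as hermaphrodite young adults containing a germline and given a temperature of 20 degrees Celsius. There is 1 condition with no other strain or treatment, so all samples share the fem-2 allele, and the labels name 2 ASH-2 ChIP samples and 2 input samples. The growth protocol speaks of gravid adults from batch cultures, so each sample is a pool of many animals and many cell types, and the peaks cannot be assigned to germline or soma. Replicate 1 has its own list of 379 peaks and replicate 2 one of 1901. The labels do not say whether each replicate was grown as its own culture, and differences between the lists may therefore be technical. The 2 lists belong to 1 group, so there is no comparison between groups and no test over samples was run. Shares are given with 95% Wilson intervals, which cover counting error only and treat neighbouring peaks as independent.

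ASH-2 belongs to the core of the COMPASS family of enzymes, which methylate lysine 4 of histone H3, a modification found at active promoters and, in worms, studied for its role in germline function and the inheritance of chromatin state. FEM-2 is a protein phosphatase that promotes male fates, including sperm production, in the worm sex-determination pathway. The arms of worm autosomes recombine more than the centres, carry more repeats and more H3K9 methylation, and hold many members of rapidly expanding gene families, such as F-box and chemoreceptor genes. No gene annotation and no sequence of the WS220 build were used here, so the peaks are named by position and not by gene.

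The right arm carried most of the peaks. The arms are equally long, at 3.82 Mb each. Series peaks numbered 98.4 per Mb on the right and 19.9 per Mb on the left, a ratio of 4.95. The right arm thus held 83.2% of the members (79.5 to 86.4%). Its peaks covered 139.9 kb, or 3.66% of the arm, against 39.2 kb, or 1.03%, on the left, so by covered length the ratio was 3.57. The centre of the chromosome had 9.42 peaks per Mb.

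The excess on the right appeared in each replicate list, but with different sizes. Replicate 1 had 64 peaks on the right arm and 8 on the left. Replicate 2 had 105 on the right and 73 on the left. The right arm therefore held 88.9% of the arm peaks of replicate 1 (79.6 to 94.3%) and 59.0% of those of replicate 2 (51.6 to 66.0%), a mean of 73.9% ± 21.1 (SD, n = 2). The series value lay between them and nearer to replicate 1, and with replicate 2 alone the ratio of right to left fell to 1.44. With peaks under 1 kb apart counted once, replicate 2 had 66 groups on the right and 51 on the left, a smaller difference. Replicate 1 had 55 and 8.

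The arms of the other autosomes were measured to the last base that any list covers. By peaks per Mb in the series list, chromosome II had both the fullest and the emptiest of the 10 autosome arms. The right arm of III followed its right arm closely, with 94.9 peaks per Mb. Next above its left arm was the right arm of I, with 24.2. By covered length the order changed at the top, where the right arm of III had 3.93% and that of II 3.66%. The left arm of II was still the lowest, with 1.03%, close to the left arm of IV, with 1.04%. On III and IV the right arm was also the fuller, with 327 peaks against 184 and 308 against 146. On V the counts were 274 and 232, while on I the left arm was the fuller, with 295 against 91. These are values of 1 list, and the differences between chromosomes were not tested.

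**Figure D1:**
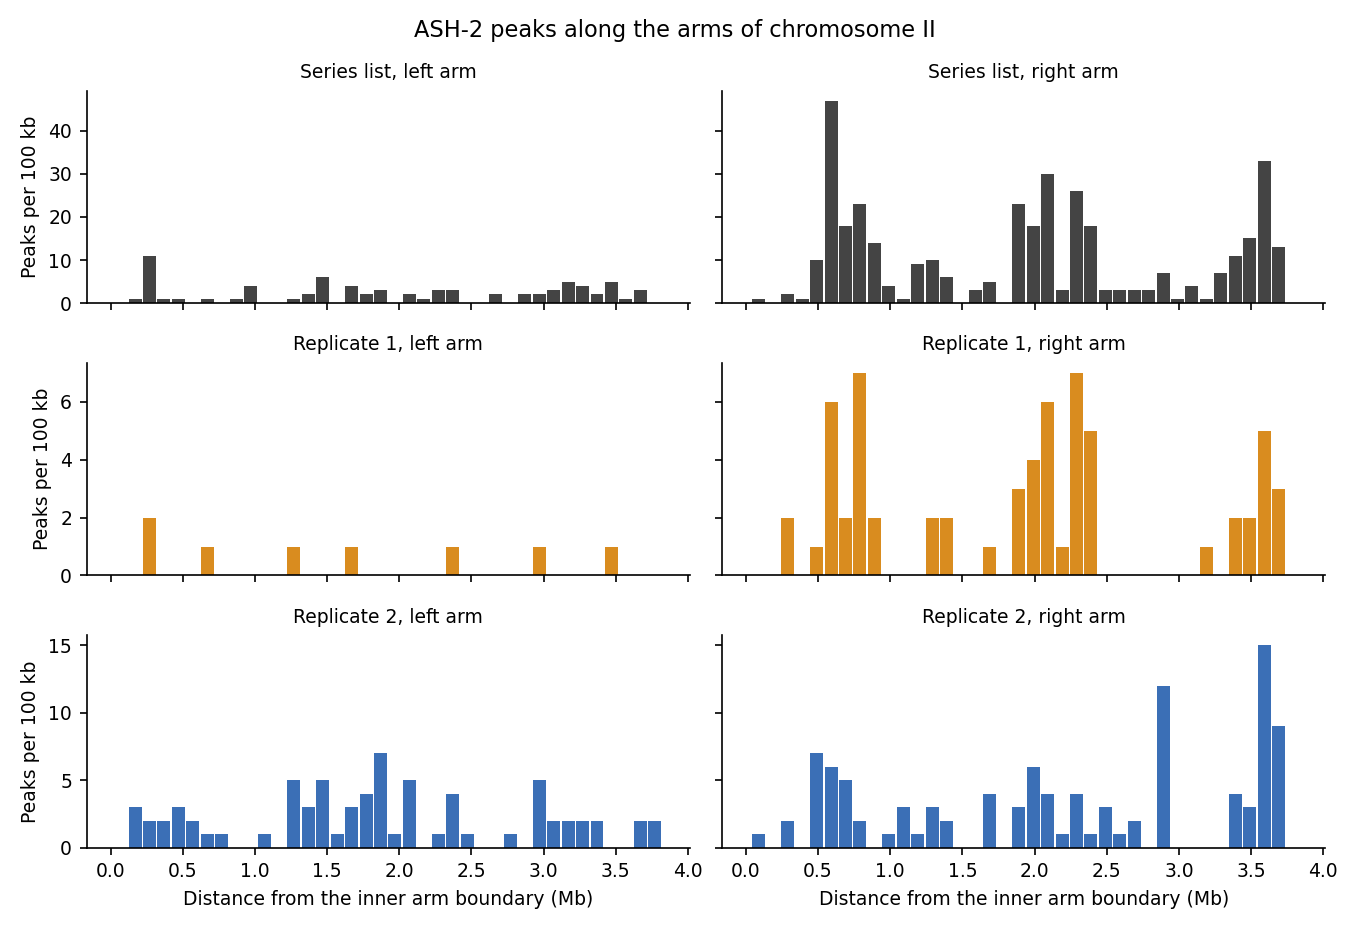
Peaks per 100 kb window on the left and right arms of chromosome II, plotted by distance from the inner boundary of each arm in Mb, for the series list, replicate 1 and replicate 2; each row has its own vertical scale. The fullest series window on the right holds 47 peaks and the fullest on the left 11, while replicate 2 has up to 15 on the right and 7 on the left.

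Peaks were unevenly spread on each arm, and the share in the 5 fullest windows was similar. That share moves with the number of peaks per window, which differed, so it does not rank the arms by unevenness. Of the 38 windows of 100 kb on the right arm, 4 had no series peak, the median window had 5.5 and the 5 fullest held 159 peaks, or 42.3%. The 5 fullest windows of the left arm held 31 of its 76 peaks, or 40.8%. The fullest window ran from 12000001 to 12100000 and had 47 series peaks, 6 peaks of replicate 1 and 6 of replicate 2. It was followed by 15000001 to 15100000 with 33 series peaks, 5 of replicate 1 and 15 of replicate 2, and by 13500001 to 13600000 with 30, 6 and 4. Both replicates thus had peaks in these windows, but replicate 2 had its highest count in the one near the chromosome end.

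Joining neighbouring windows that had 10 or more series peaks, a threshold chosen after the counts were seen, gave 5 stretches on the right arm with 309 of its 376 peaks, or 82.2%. They held 89.1% of the replicate 1 peaks of the arm and 68.6% of those of replicate 2. The longest ran from 11900001 to 12400000 with 112 series peaks, 18 of replicate 1 and 20 of replicate 2. The stretch from 13300001 to 13600000 had 71 series peaks with 13 in each replicate. That from 13700001 to 13900000 had 44 series peaks, 12 of replicate 1 and 5 of replicate 2. The outermost, from 14800001 to 15200000, had 72 series peaks, 12 of replicate 1 and 31 of replicate 2. Replicate 1 had its largest share of right arm peaks, 28.1%, in the innermost of these stretches, and replicate 2 had its largest, 29.5%, in the outermost. These shares are not scaled for length, and the stretches are 5, 1, 3, 2 and 4 windows long, from the inner side outwards. By single window, replicate 1 had its highest count, 7, both at 12200001 to 12300000 and at 13700001 to 13800000.

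Some windows of the right arm had peaks of replicate 2 and 0 of replicate 1, most of them with 3 peaks or fewer. The fullest of these windows stood apart. From 14300001 to 14400000 replicate 2 had 12 peaks, its next highest count on the arm, and replicate 1 had 0. The 7 series peaks there were each overlapped by replicate 2. In the window from 14700001 to 14800000 the series list also had 7 peaks, but neither replicate had any.

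Counts per window were lower on the left arm. Of its 38 windows, 11 had no series peak and the median had 1.5. The fullest, from 3500001 to 3600000, had 11 series peaks and 2 in each replicate, and it was the only left window with 10 or more. Counted by Mb from the left end, it had 27, 14 and 20 peaks, and 15 in the rest up to the boundary. The fullest left window of replicate 2, from 1900001 to 2000000, had 7 of its peaks, 3 series peaks and 0 of replicate 1. Across windows, series counts ranked with replicate 1 counts at Spearman's rho 0.82 on the right arm and 0.35 on the left. With replicate 2 counts they ranked at 0.68 and 0.34, and the counts of the 2 replicates ranked with each other at 0.60 and 0.25. On the left, replicate 1 had no peak in 31 of the 38 windows, so its values there rest on few windows. These values of rho are descriptions over 38 windows per arm that share neighbours and libraries.

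No series peak lay at the very ends of the chromosome, though longer empty stretches lay within each arm. Those reached 308.0 kb on the left and 250.7 kb on the right. The first series peak lay from 141794 to 141939, and the last from 15188930 to 15189226, 90.1 kb from the right end. Neither was overlapped by a replicate. Replicate 2 had a peak starting at base 2, whereas the first peak of replicate 1 began at 389746. At the inner boundaries, the last left member, 3697636 to 3697933, had a score of 8.25, and the first peak beyond it, 4017455 to 4017716, had 4.04. On the right, the last centre peak, 11442035 to 11442299, had a score of 5.12, and the first member, 11506249 to 11506394, had 3.53. No series peak lay between 3697933 and 4017455, so a small shift of the left boundary would not change the membership.

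Peaks on the right arm lay close together. The median gap between neighbouring peaks, counted as the bases between them, was 997 bp on the right arm (857 to 1273 bp, 95% order-statistic interval) and 14006 bp on the left (5656 to 37487 bp). Gaps under 1 kb made up 188 of 375 on the right, 50.1% (45.1 to 55.2%), and 21 of 75 on the left, 28.0% (19.1 to 39.0%). The 8 arms of chromosomes I, III, IV and V had 20.7 to 38.5% of gaps under 1 kb, so the right arm lay above that range and the left arm within it. The right arm of III, the next in peaks per Mb, had 35.0% of its gaps under 1 kb (30.0 to 40.3%) and a median gap of 2419 bp. Gap length moves with the density of peaks, and the part of density in these differences was not tested.

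**Figure D2:**
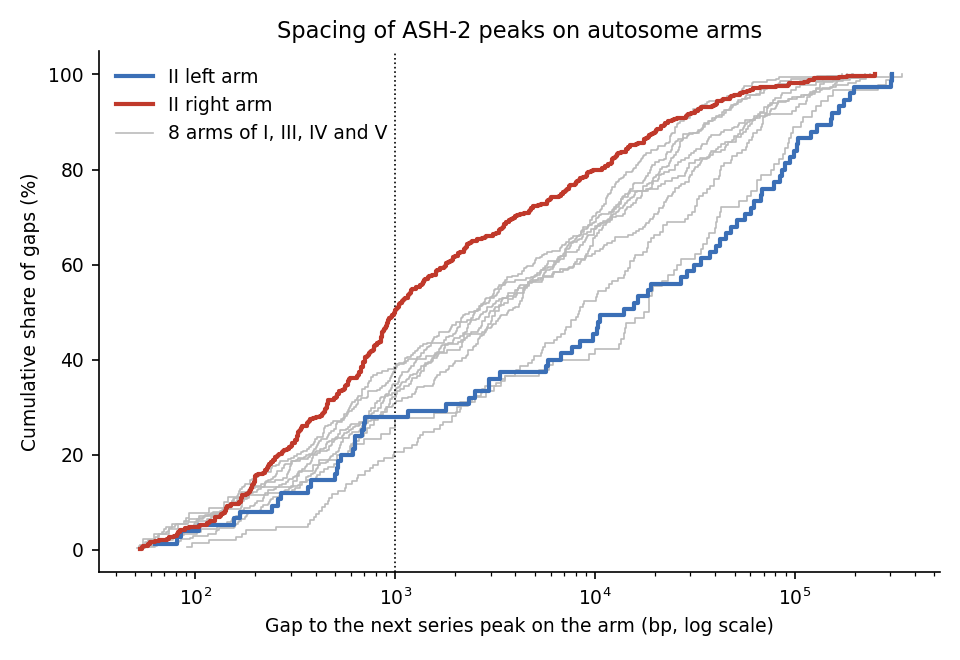
Cumulative share of gaps between neighbouring series peaks, in percent, against gap length in bp on a log axis, for the left arm (blue) and right arm (red) of chromosome II and the 8 arms of I, III, IV and V (grey); the dotted line marks 1 kb. The right arm of II reaches 50.1% by 1 kb, above every grey line, and the left arm 28.0%.

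On the right arm the share of short gaps was lower in each replicate list than in the series list, and on the left it was close to the series value in replicate 2. In replicate 2, gaps under 1 kb were 37.5% on the right arm (28.8 to 47.1%) and 30.6% on the left (21.1 to 42.0%), with overlapping intervals. In replicate 1 they were 9 of 63 on the right and 0 of 7 on the left. The longest stretches without a series peak were 308.0 kb on the left, from 1110934 to 1418892, and 250.7 kb on the right, from 11506395 to 11757053. By midpoint, each held 1 peak of replicate 2 and 0 of replicate 1.

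Chains of 3 or more peaks, each under 1 kb from the next, are called clusters here. The right arm had 43 clusters with 194 peaks, or 51.6% of its peaks, and the left arm 5 clusters with 16 peaks, or 21.1%. On the right 19 clusters had 3 peaks, 11 had 4 and 13 had 5 or more, whereas on the left 4 had 3 peaks and 1 had 4. The median span of a cluster was 2560 bp on the right and 1666 bp on the left. Single peaks, with no neighbour under 1 kb, made up 28.7% of the right arm and 52.6% of the left. In the other autosome arms 13.0 to 34.7% of peaks were in clusters, and the longest chain there had 10 peaks, on the left arm of V.

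The longest chain of the chromosome II arms had 14 peaks between 12012127 and 12022422, a span of 10296 bp. Its peaks were 146 to 1072 bp wide and had scores from 2.39 to 11.49. Replicate 1 had 1 peak there, of 1619 bp, over the first series peak, and replicate 2 had 0, so 13 of the 14 peaks were overlapped by neither replicate. The next, with 11 peaks from 15059526 to 15068179, was overlapped by 3 peaks of replicate 1 and 3 of replicate 2, and 2 of its peaks were overlapped by neither. A chain of 9 peaks from 13742260 to 13748515 was spanned over most of its length by 2 peaks of replicate 1, of 2144 and 2585 bp, with 0 of replicate 2. These 3 chains thus show each kind of overlap, from almost none to most of the peaks.

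On the left, the chain of 4 peaks from 3532804 to 3535293 had 3 of its peaks inside 1 replicate 1 peak of 2488 bp. The chain of 3 from 2326154 to 2327826 had 2 peaks overlapped by replicate 2 and 0 by replicate 1. The one from 2883282 to 2884947 was overlapped by neither replicate.

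**Figure D3:**
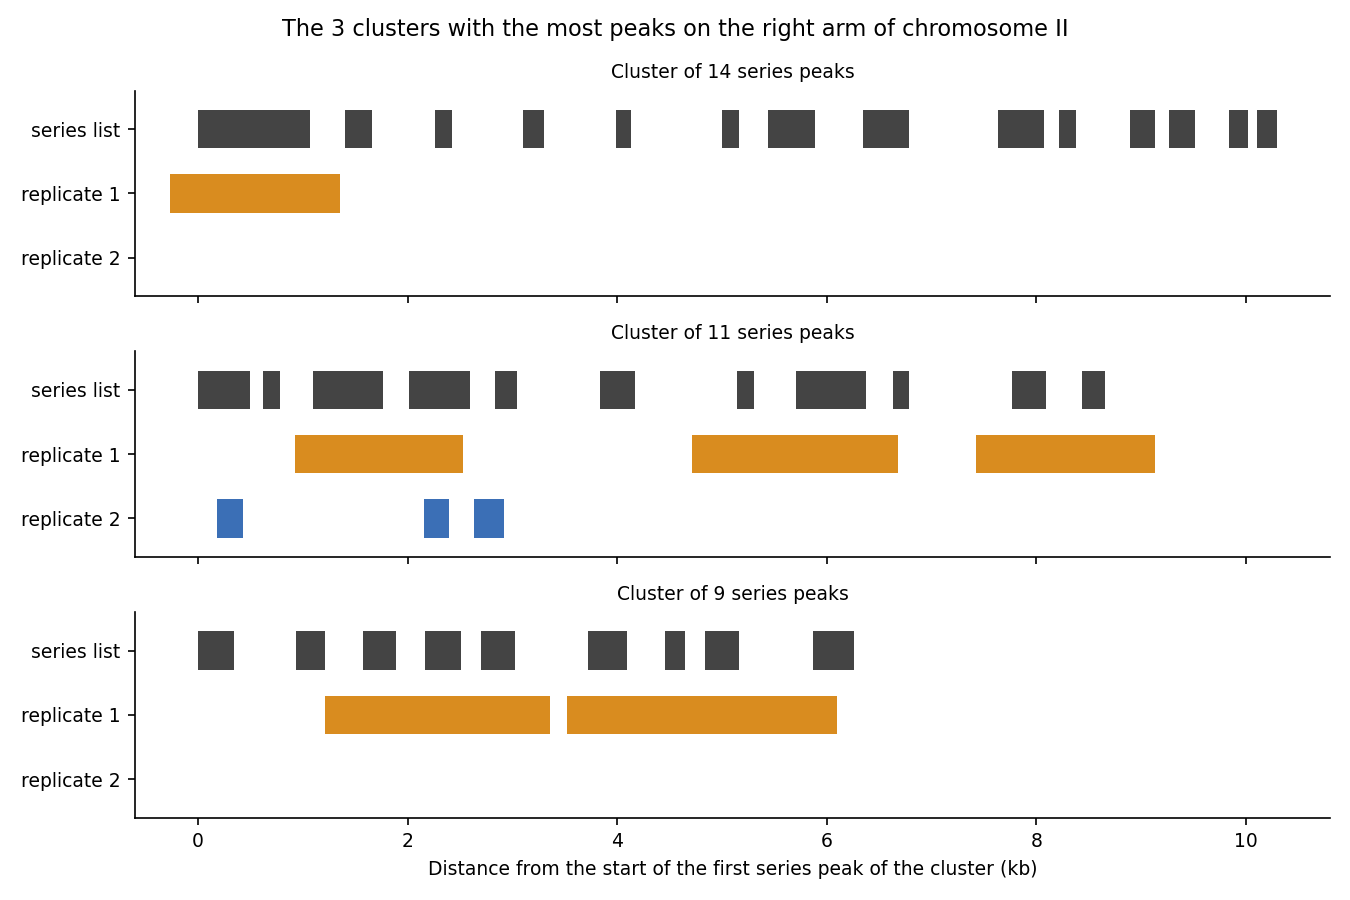
Map of the 3 right arm clusters with the most peaks, drawn to scale as distance in kb from the start of the first series peak; bars are peaks of the series list (dark), replicate 1 (orange) and replicate 2 (blue). The chains of 14 and 9 peaks have no replicate 2 peak, and single replicate 1 peaks extend over several series peaks.

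Most clusters on the right arm were overlapped by a replicate 1 peak. Of the 43, 30 were overlapped by replicate 1 (69.8%), 12 by replicate 2 (27.9%), 9 by both and 10 by neither. Of the 194 series peaks in right clusters, 51.0% were overlapped by replicate 1 and 14.9% by replicate 2, against 18.7% and 22.5% of right arm peaks outside clusters. A wide replicate peak counts for several series peaks: 41 of the 64 right arm peaks of replicate 1 overlapped 2 or more series peaks and 16 overlapped 3 or more, with at most 7, and in replicate 2 this was so for 10 and 1 of 105. The few strongest scores lay outside clusters, since the highest score in a cluster was 25.15 on the right and 13.86 on the left. By median, right arm peaks in clusters were at the 55.8th percentile of score in the series list and those outside at the 51.5th. On the left these medians were at the 33.7th and the 57.9th.

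Over both arms, 146 of 452 members were overlapped by at least 1 bp of a replicate 1 peak, or 32.3% (28.2 to 36.7%), where the whole series list had 21.6%. Replicate 2 overlapped 99, or 21.9% (18.3 to 25.9%), against 36.6% in the whole list. Both replicates overlapped 38, or 8.41% (6.19 to 11.3%), against 10.6%, and neither overlapped 245, or 54.2% (49.6 to 58.7%), against 52.4%. With both arms counted, the members were thus above the whole list in overlap with replicate 1 and below it with replicate 2. With all scores counted, the shares for both and for neither were close to it. The left arm alone was not above the list for replicate 1 or below it for replicate 2, with 17.1% and 38.2%. In the highest score quartile of the list, neither overlapped 23.1% of members (16.2 to 31.9%), against 15.3% of the list. Both overlapped 27.8% of members there (20.2 to 36.9%), against 36.6%, a value inside the interval. The arms of I, III, IV and V together had 18.7% overlapped by replicate 1, 27.2% by replicate 2 and 62.7% by neither.

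The arms of chromosome II differed from each other in which replicate overlapped them. On the right, 133 peaks were overlapped by replicate 1 (35.4%, 30.7 to 40.3%) and 70 by replicate 2 (18.6%, 15.0 to 22.9%). On the left the order was the opposite, with 13 by replicate 1 (17.1%, 10.3 to 27.1%) and 29 by replicate 2 (38.2%, 28.1 to 49.4%). The intervals of the arms did not overlap for either replicate, with the limit on independence given above. The share with neither was nearly equal, 54.5% on the right and 52.6% on the left. With peaks under 1 kb apart merged into 1 region, so that a chain counts once, the shares were 30.3% and 24.5% on the right and 14.5% and 43.6% on the left, and the intervals for replicate 1 then overlapped. They also overlapped among the higher-scoring 50% of the list, where replicate 1 overlapped 47.1% on the right (40.5 to 53.9%) and 29.7% on the left (17.5 to 45.8%). In both settings the intervals for replicate 2 stayed apart, but narrowly. After merging they were 18.9 to 31.1% on the right and 31.4 to 56.7% on the left. Among the higher-scoring 50% they were 18.6 to 30.0% and 31.0 to 61.6%.

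**Figure D4:**
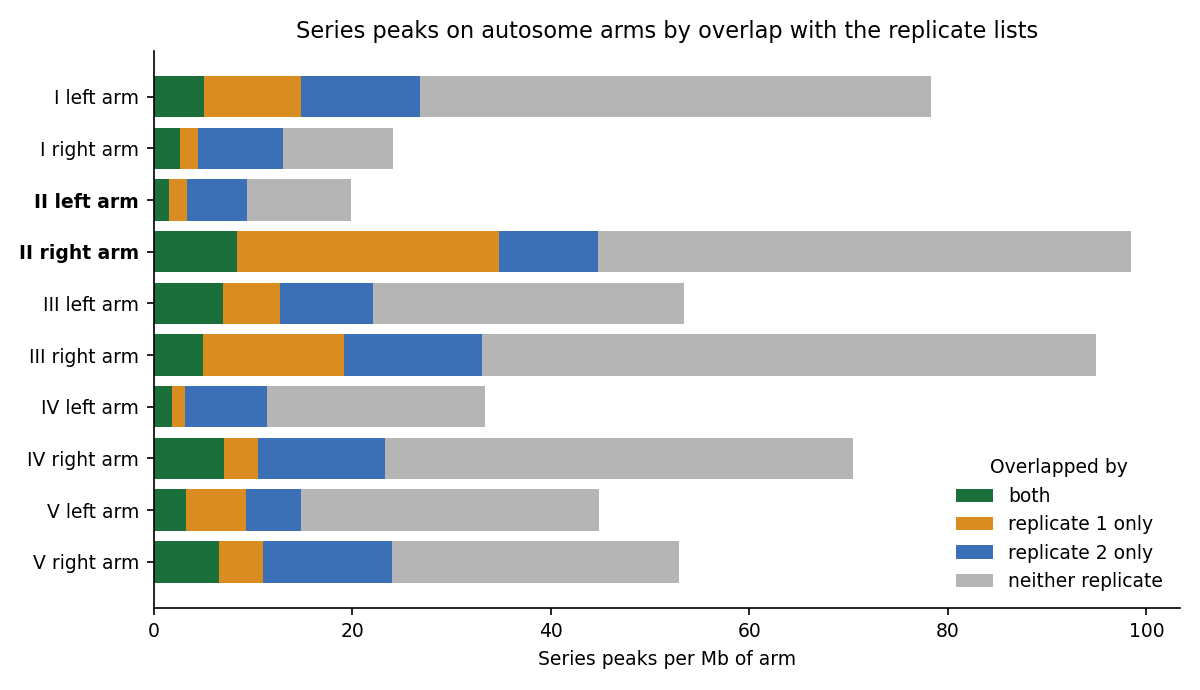
Series peaks per Mb on each of the 10 autosome arms, divided into those overlapped by both replicates, by replicate 1 only, by replicate 2 only and by neither; bars start at 0 and chromosome II is in bold. On the right arm of II, 101 of 376 peaks were overlapped by replicate 1 only, and on its left arm 7 of 76.

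Seen from the replicates, the series list took in all replicate 1 peaks on these arms and part of those of replicate 2. All 64 right and all 8 left peaks of replicate 1 were overlapped by a series peak, as were all 10 in the centre. Full inclusion was thus not particular to the arms. Of the replicate 2 peaks, 70 of 105 on the right were (66.7%, 57.2 to 75.0%) and 32 of 73 on the left (43.8%, 33.0 to 55.2%). In the centre this was so for 42 of 80 (52.5%, 41.7 to 63.1%). Between the replicates, replicate 2 overlapped 23 of the 64 right peaks of replicate 1, a share of 35.9% (25.3 to 48.2%). It overlapped 5 of the 8 left peaks and 9 of the 10 in the centre. Shares over the whole replicate lists are not given here. Within its own list, the left peaks of replicate 1 were few but ranked high, with a median at the 79.7th percentile of score, and its right peaks had a median at the 40.9th.

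Members overlapped by neither replicate were mostly close to a replicate peak on the right arm and far from one on the left. The median distance to the nearest peak of either replicate was 4.20 kb over the 205 such peaks on the right and 30.1 kb over the 40 on the left. On the right, 115 of them (56.1%) were within 5 kb of a replicate peak, 100 of replicate 1 and 57 of replicate 2, counting some under both. On the left, 7 (17.5%) were within 5 kb, 1 of replicate 1 and 6 of replicate 2. Replicate peaks are also closer together on the right, and the part of their density in these distances was not tested. Within 1 kb there were 48 on the right and 4 on the left.

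Widths were similar on the arms. The median was 244.5 bp on the right (232 to 264 bp) and 215 bp on the left (186 to 269 bp), with overlapping intervals, and the shortest peak was 146 bp on each. Peaks of 1 kb or more numbered 19 on the right (5.05%) and 4 on the left (5.26%). The peaks overlapped by both replicates were wider by median, at 1004.5 bp over 38 peaks. The medians were 301 bp for replicate 1 only, 312 bp for replicate 2 only and 199 bp for neither. Widths overlapped between these classes: peaks with both ran from 156 to 9256 bp, and those with 1 replicate only reached 1072 and 1155 bp. The 6 peaks with both on the left had a median of 2444.5 bp and covered 20.8 of the 39.2 kb covered there. Replicate 1 peaks on the right arm had a median of 1811.5 bp and those of replicate 2 a median of 376 bp.

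Scores are the authors' own values of unnamed type, so they are used only as ranks within the series list. The members' median was at the 53.7th percentile of the list (49.3 to 55.8), at the 55.8th on the right (51.5 to 57.7) and the 46.9th on the left (36.4 to 66.5). Many scores are tied: the 452 members had 117 different values, and 30 of them had 4.29. The left arm had 24 of its 76 peaks in the highest score quartile (31.6%), then 13 (17.1%), 22 (28.9%) and 17 in the lowest (22.4%). The right arm had 84 in the highest (22.3%), then 126 (33.5%), 85 (22.6%) and 81 in the lowest (21.5%). The arms thus differed in the upper quartiles more than in the lowest, where the whole list had 22.9%. Among the 100 highest scores of the list were 5 left and 5 right members, which is 6.58% of the left arm and 1.33% of the right.

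Rank, width and overlap went together. Score and width had a Spearman's rho of 0.54 over the 452 members, as a description, since both come from the same peak call. Of the 108 members in the highest score quartile, 57.4% were overlapped by replicate 1, 47.2% by replicate 2 and 23.1% by neither. Of the 98 in the lowest, 17.3%, 13.3% and 71.4% were. The whole list showed the same order, with 48.5%, 72.7% and 15.3% in its highest quartile and 9.86%, 23.2% and 68.7% in its lowest. With both arms counted, the members were below the list for replicate 2 in each of these quartiles. By arm this held on the right, with 41.7% in the highest and 8.64% in the lowest. On the left the shares were 66.7% (46.7 to 82.0%) and 35.3% (17.3 to 58.7%), the latter above the list. Both left intervals included the list value. In the highest quartile, replicate 1 overlapped 53 of 84 right peaks (63.1%, 52.4 to 72.6%) and 9 of 24 left peaks (37.5%, 21.2 to 57.3%). Replicate 2 overlapped 35 of these right peaks (41.7%, 31.7 to 52.3%) and 16 of the left (66.7%, 46.7 to 82.0%). The order of the replicates was again opposite on the arms, but the intervals of the arms overlapped for each replicate. In the next quartile the left arm did not have this order, with 2 of 13 peaks overlapped by replicate 1 and 1 by replicate 2.

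**Figure D5:**
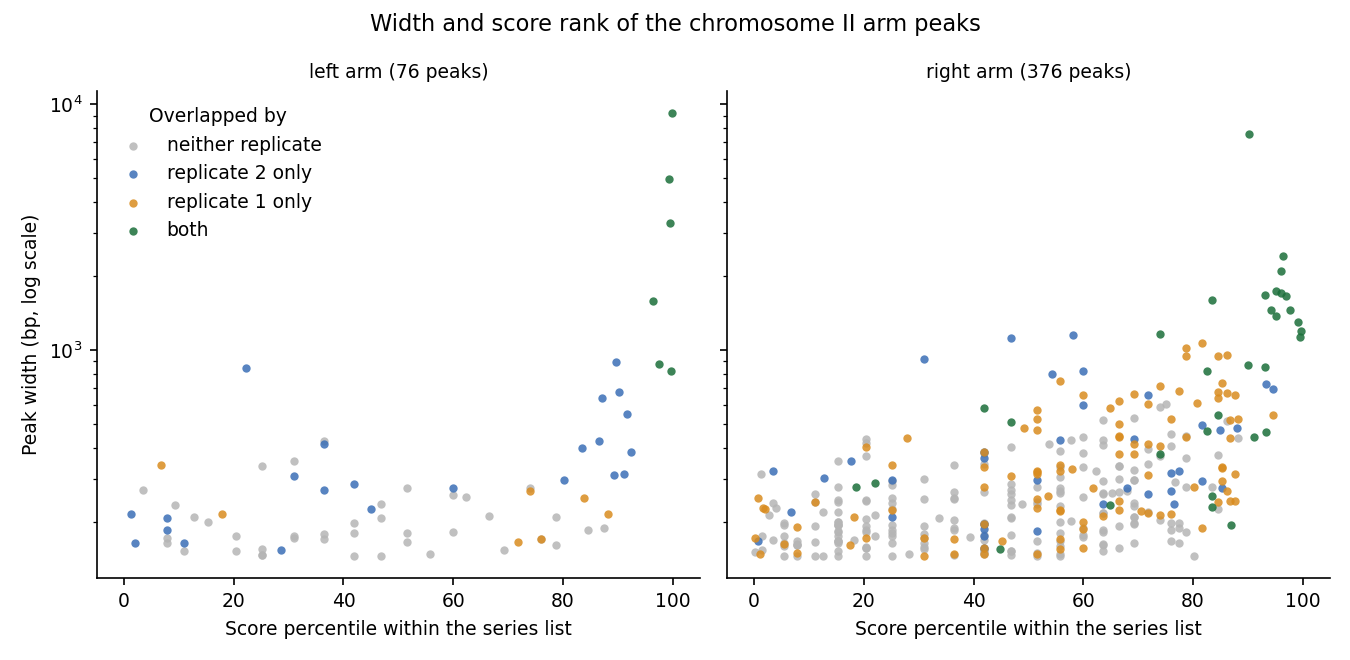
Width of each member in bp, on a log axis, against its score percentile within the series list, for the left and right arms; colours give the overlap with the replicates. The 6 left peaks overlapped by both replicates lie at or above the 96.4th percentile, the 32 such right peaks have a median at the 90.1th, and the 5 widest members reach from 2425 to 9256 bp.

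The 10 highest-scoring members were divided evenly, 5 on each arm, and each was overlapped by both replicates. Both overlapped 36.6% of the highest score quartile of the whole list. The list share at the ranks of these 10 is not given here, so this count is not a trait particular to them. On the left, the first was a broad region from 3159380 to 3168635, of 9256 bp, with a score of 74.02, the next to highest in the whole list. Replicate 1 had 1 peak of 9954 bp there and replicate 2 had 1 of 9181 bp, each at a score of 3100, a value shared by 9 peaks of replicate 1 and 96 of replicate 2. All 3 lists drew nearly the same borders around it.

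A pair of neighbouring peaks on the left formed the other broad region. The peak from 1450408 to 1455370, of 4963 bp, had a score of 47.76, and the one from 1455538 to 1458837, of 3300 bp, had 53.88. Only 167 bp lay between them. Replicate 1 spanned both with 1 peak of 9074 bp, and replicate 2 had 4 peaks over them. The remaining left sites were narrower than these but above the left upper quartile of 319.5 bp. The peak from 891244 to 892068, of 825 bp, ranked 10 in the list with a score of 58.81, and 2570195 to 2571072, of 878 bp, ranked 73 with 31.20.

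On the right arm the 5 strongest sites were each over 1 kb wide, as were 19 of the 376 peaks there. The peak from 13582864 to 13584056, of 1193 bp, ranked 11 with a score of 58.14. It was followed by 14877685 to 14878815, of 1131 bp, with rank 17, and 14836764 to 14838064, of 1301 bp, with rank 24. Then came 15186006 to 15187458, 91.9 kb from the chromosome end, with rank 68, and 11757054 to 11758710, with rank 94. The widest right member was weaker: the peak from 11985881 to 11993478, of 7598 bp, had a score of 13.05 and rank 292. Replicate 1 had a single peak of 14270 bp over it, which also took in the 2425 bp member from 11995507 to 11997931, and replicate 2 had 4 peaks over the wider member. This stretch adjoins the fullest window of the arm on its inner side.

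The strongest members that no replicate overlapped ranked far lower. The highest, from 12017570 to 12018010, of 441 bp, had a score of 11.49 and rank 347, and it belongs to the chain of 14 peaks described above. The next were 989112 to 989300 on the left, with 11.12, and 12695272 to 12695786 on the right, with 10.37. The peaks 673390 to 673574 on the left and 12251689 to 12252062 on the right both had 9.64. Members of this kind were at most 604 bp wide.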

How the data were processed

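ChIP-seq was carried out on 2 ASH-2 ChIP samples with 2 input samples. The authors deposited 3 peak lists with a score for each peak, in WormBase WS220 coordinates, per the file headers. The source column names MACS v2 in the series list and MACS in both replicate lists, and BWA and ce10 appear in the submitters' processing notes. The sources used here do not give the parameters, the controls or any pooling of reads. The type of the deposited score is not named, so scores served only as ranks within 1 list. No input values were analysed here, and the lists hold no counts, so depth is unknown.

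Arms were the outer 25% of the chromosome by peak midpoint. Overlap needed 1 bp, windows were 100 kb wide, and intervals are 95% Wilson or, for medians, order-statistic intervals. No sequence of the build was used here. Functions were tested on simulated lists. Regions named are the 10 highest-scoring members, the 5 widest, the 3 clusters with the most peaks on each arm, the 5 highest-scoring members that no replicate overlaps, the fullest window of each arm and the peaks at the ends and boundaries. Other windows and stretches were named after their values were seen. The members and these rules were chosen with earlier results of these data known. The alternatives were other overlap rules, higher scores, outer 20% arms, merged peaks, covered length, 5 kb gaps, either replicate list used alone and, added later, leaving out the fullest windows. Tables were made with pandas 2.3.3 and NumPy 2.4.6, intervals with SciPy 1.17.1 and figures with Matplotlib 3.10.9, under Python 3.11.15.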

Additional observations from a re-analysis of the deposited data

How the results depend on the processing

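The right arm held the larger share under all 7 alternatives tried. Its 83.2% moved beyond its interval to 77.4% with peaks under 1 kb apart merged and to 78.1% by base pairs covered, and ranged from 59.0 to 88.9% when a single replicate list took the place of the series list. Overlap shares stayed within their intervals with 50% overlap of the shorter peak and with outer 20% arms. Counting replicate peaks within 500 bp gave 36.9% for replicate 1, 11.7% for both and 49.1% for neither. Keeping only the higher-scoring 50% of series peaks gave 44.5% for replicate 1, 27.1% for replicate 2, 13.4% for both, 41.7% for neither, 35.1% of gaps under 1 kb, 20 clusters in place of 48, a median width of 312 bp and, ranked within the shorter list, a median percentile of 44.1. Shares of the whole list among that 50% are not given here. Merging gave 26.7% for replicate 1, 28.8% for replicate 2, 11.9% for both and a median width of 431 bp. With a gap of 5 kb, 66.4% of gaps counted as short and there were 46 clusters. With single replicate lists, gaps under 1 kb ranged from 12.9 to 34.7%, clusters from 0 to 13 and the median width from 349.5 to 1823.5 bp. Leaving out the fullest window of each arm, an alternative added after seeing the data, moved no value beyond its interval or by over 1.5 times. The causes were not tested. Between ChIP and input, which share replicate numbers, no values of the input were used. No paired analysis was possible because of this, while within each ChIP list the right arm had more peaks than the left, in 2 of 2 lists. Depth is unknown, so whether the short list of replicate 1 comes from fewer reads was not tested.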
